A study of Homo sapiens with 52 samples.

Results

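The 8 genes described here are TRNP1, LPAR3, STARD5, ACSF2, MINPP1, SURF1, LINC00663 and TP53TG1, out of 27043 gene rows measured by RNA-seq. They were chosen by name because they stood near the top of a ranking of all genes by the difference between compounds that act on histone acetylation and compounds that act on histone methylation, so that difference is given as a description, with no test. All 8 were among the 16359 genes that passed the filter on low values, which kept genes whose TPM reached 1 in 2 samples out of 52. LPAR3 passed it only through samples of HDAC or bromodomain inhibitors, where it was high. Outside these it reached 1 TPM only in low-dose PFI-2 (1.13 TPM, 4 reads). TPM is a transcript level scaled for gene length and library size. Differences below are in log2(TPM + 1), which understates the change of genes with low levels.

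The cells were fusion-positive rhabdomyosarcoma (FP-RMS) cells in culture, from a childhood tumour of the muscle lineage that carries the PAX3-FOXO1 fusion. In the screen, cells were exposed for 6 h to 20 compounds at a high and a low dose, with 1 sample for each compound and dose (40 treated samples), and 4 DMSO samples (2 at 0.1% and 2 at 0.2%) served as controls. The high dose was 10 times the low dose, 5 and 0.5 µM for LAQ824, Cpd50 and GSKJ4 and 10 and 1 µM for the others. The titles of the screen samples name RH41 cells whereas their cell-line label names RH4. Separate experiments with RH4 titles held N1302 at 1 µM for 6 h with 1 DMSO sample, and entinostat at 1 µM with DMSO at 1, 6 and 24 h, with 1 sample each; all 4 of these DMSO samples were at 0.1%. The labels name no genetic change, and whether the screen and these experiments used the same line cannot be told from them.

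By the targets in the labels, 7 compounds formed the acetylation axis. LAQ824 (HDAC), MC1568 (HDAC4/5), Merck60 (HDAC1/2), OJI-1 (HDAC8) and WT161 (HDAC6) are aimed at histone deacetylases, and Bromosporin and SGC-CBP30 at the bromodomains that read acetyl-lysine. The methylation axis held 11 compounds, namely the demethylase inhibitors Cpd50, GSKJ4, GSKLSD1, LSD-519 and LSD-690, the methyltransferase inhibitors EZ-005, UNC1999, PFI-2, SGC0946 and UNC0638, and the methyl-lysine reader inhibitor UNC-1215. PFI-3 (SMARCA4) and Trametinib (MEK1/2) were placed on neither axis. The paper lists BRG, the SMARCA4 protein, among remodelers with acetylation-reader domains, so PFI-3 could also be counted as a reader compound. N1302 and entinostat are also HDAC inhibitors.

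Depth, worked out from the TPM values, ran from 5616175 to 41415071 reads per sample. Shallow libraries came mainly from flow cell C5JW5ACXX, where 28 samples, none of them DMSO, reached 10226895 reads at the median. The high-dose UNC0638 library stood apart in several of the 8 genes, and the axis differences and dose steps are also given without this compound. Muscle-lineage markers of FP-RMS were present in all 8 DMSO samples (MYOD1 from 248.8 to 648.3 TPM, MYOG from 391 to 633 TPM), whereas the epithelial markers EPCAM, CDH1 and KRT5 did not exceed 0.143 TPM and the immune and endothelial markers PTPRC, CD3E, PECAM1, CDH5 and VWF did not exceed 0.517 TPM; the immune marker CD14 reached 1.94 TPM. At each DMSO concentration, replicates 1 and 2 were sequenced on different flow cells. Among the 10378 genes above a floor of 100 reads in every DMSO library, the interaction of concentration and flow cell had 1.03 times the variance of counting noise, so the 2 samples of a concentration agree within sampling noise once flow cell is allowed for, and they were counted as 1 sample in each mean ± SD (n = 2). The limma fits kept all 4 samples, and those of Trametinib and PFI-3 were repeated with DMSO averaged to 1 sample per concentration.

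Histone acetylation is set by acetyltransferases and removed by HDACs, and bromodomain proteins bind acetyl-lysine and recruit the transcription machinery. HDAC inhibitors raise acetylation within hours and are known to raise some transcripts and lower others. Histone methylation can mark active or silent chromatin, depending on the residue. The 8 genes are of unrelated function. TRNP1 encodes a nuclear protein studied in neural progenitors, LPAR3 a G protein-coupled receptor for lysophosphatidic acid (LPA), STARD5 a START-domain protein that carries sterols, and ACSF2 a mitochondrial acyl-CoA synthetase. MINPP1 encodes a phosphatase that removes phosphates from inositol phosphates, and SURF1 an assembly factor of cytochrome c oxidase. LINC00663 and TP53TG1 are long non-coding RNAs, the latter first described as induced by p53.

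In build hg19, TRNP1 lies on chromosome 1 from 27320195 to 27327377 and LPAR3 on chromosome 1 from 85279086 to 85358896. STARD5 lies on chromosome 15 from 81605007 to 81616524, ACSF2 on chromosome 17 from 48503519 to 48552206, and MINPP1 on chromosome 10 from 89264223 to 89313218. SURF1 lies on chromosome 9 from 136218660 to 136223361, LINC00663 on chromosome 19 from 19867181 to 19887222, and TP53TG1 on chromosome 7 from 86954664 to 86974808. The annotation puts TRNP1, ACSF2 and MINPP1 on the plus strand and the others on the minus strand. The values are 1 per gene, with no isoforms.

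The 250 bases before the start of the 3 genes with the largest differences are shown as a description. The genes were chosen on the contrast between the axes, so nothing about a shared promoter is read from their moving together. They come from RefSeq, build GRCh38.p14, whose coordinates differ from those of hg19, and run 5′ to 3′ on each gene's own strand. Capitals mark GC boxes, GGGCGG on either strand, a motif bound by SP-family factors.
TRNP1, chr1:26993442-26993691, plus strand: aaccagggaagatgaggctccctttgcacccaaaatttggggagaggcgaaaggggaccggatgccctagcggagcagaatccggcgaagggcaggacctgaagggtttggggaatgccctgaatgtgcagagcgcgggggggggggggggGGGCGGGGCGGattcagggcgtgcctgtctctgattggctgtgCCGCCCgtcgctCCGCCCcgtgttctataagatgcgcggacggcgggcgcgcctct
LPAR3, chr1:84893207-84893456, minus strand: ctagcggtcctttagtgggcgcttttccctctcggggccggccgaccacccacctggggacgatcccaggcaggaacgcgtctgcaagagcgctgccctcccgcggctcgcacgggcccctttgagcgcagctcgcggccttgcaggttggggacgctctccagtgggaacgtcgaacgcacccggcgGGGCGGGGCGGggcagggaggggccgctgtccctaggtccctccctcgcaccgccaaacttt
STARD5, chr15:81324142-81324391, minus strand: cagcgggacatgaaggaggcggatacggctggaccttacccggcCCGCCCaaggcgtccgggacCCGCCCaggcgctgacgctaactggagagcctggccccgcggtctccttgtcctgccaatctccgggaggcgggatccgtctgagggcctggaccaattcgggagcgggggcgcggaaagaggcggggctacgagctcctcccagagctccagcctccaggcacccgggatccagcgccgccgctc

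These windows hold 4, 2 and 2 GC boxes, and in TRNP1 and LPAR3 a pair of boxes overlaps by a base. Of 35116 promoter windows of 300 bases in the RefSeq table, 45.0% held a GC box; 7 of the 8 genes had a window, MINPP1 had 2 of them, and 6 of these 7 genes held one. A CCAAT box (CCAAT on either strand) was in the windows of 4 of the 7 genes, against 34.6% of all windows, and a TATA box (TATAAA) in 1 of 7, against 11.5%. MINPP1 entered both counts through its second window alone, and the TATA box was there. An E-box (CANNTG) was in 5 of 7, against 68.7%. A gene counted if any of its windows held the motif, whereas the shares are per window. Such a match describes the letters and does not locate a bound factor.

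SURF1, TP53TG1 and STARD5 each start close to a gene that runs the other way, which for STARD5 is TMC3-AS1 at 149 bases. For SURF1 and TP53TG1, the stretches up to their partners, SURF2 and CROT, were read from GRCh37 on the plus strand, again with GC boxes in capitals.
SURF1-SURF2, chr9:136223362-136223420: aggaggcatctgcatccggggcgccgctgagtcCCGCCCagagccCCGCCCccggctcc
TP53TG1-CROT, chr7:86974809-86974950: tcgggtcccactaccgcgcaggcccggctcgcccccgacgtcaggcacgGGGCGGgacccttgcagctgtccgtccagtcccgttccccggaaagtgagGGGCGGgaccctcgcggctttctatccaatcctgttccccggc

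Each of these gaps, of 59 and 142 bases, holds 2 GC boxes.

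Across compounds, all 8 genes were higher on the acetylation axis than on the methylation axis. Each compound entered as the mean of its doses minus the mean of the 4 DMSO samples. In these bulk samples, fewer cells of a kind and less RNA per cell cannot be told apart. TRNP1 had the largest difference, 1.55 (SE 0.26), and STARD5 (1.24, SE 0.24) and LPAR3 (1.03, SE 0.18) followed. The difference was 0.73 (SE 0.14) for LINC00663, 0.68 (SE 0.14) for ACSF2, 0.64 (SE 0.12) for TP53TG1, 0.51 (SE 0.10) for MINPP1 and 0.49 (SE 0.09) for SURF1. With the moderated t statistic of limma across all tested genes as the measure, the 8 genes held places 1, 2, 3, 5, 6, 8, 9 and 12, ordered as TRNP1, LPAR3, SURF1, LINC00663, TP53TG1, MINPP1, STARD5 and ACSF2. The places between were held by LOC105373519 and EYA1, which were lower on the acetylation axis, and by USP12-AS2 and TRIM74. ACSF2, the last of the 8, had a t of 4.89, and SFRP1, the next gene below it, 4.88. With limma's Benjamini-Hochberg adjustment, 0 of the 16359 genes had an adjusted p below 0.05 in this comparison and 5018 had an unadjusted p below 0.05.

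**Figure D1:**
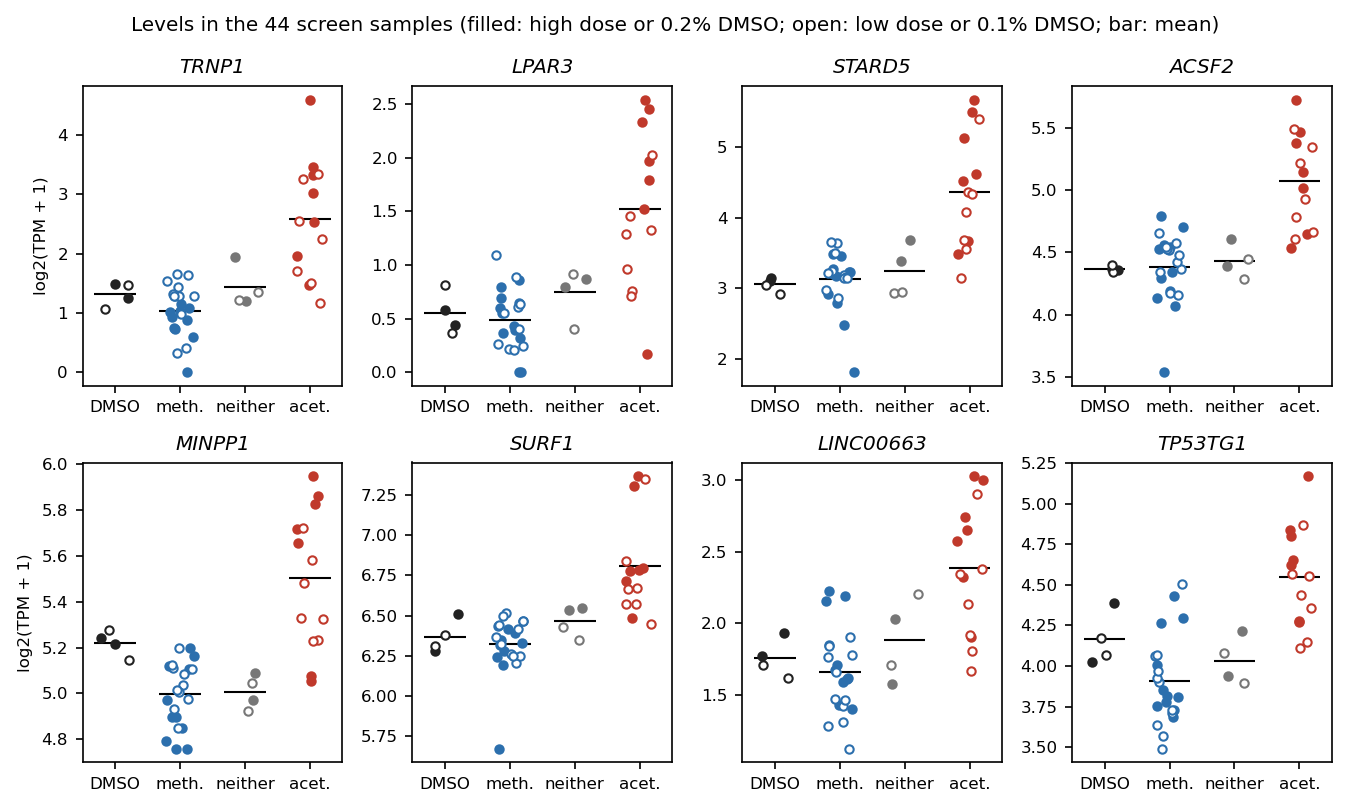
Level of each gene, log2(TPM + 1), in the 44 screen samples, by DMSO, methylation axis (meth.), neither axis and acetylation axis (acet.); points are samples, filled for the high dose or 0.2% DMSO and open for the low dose or 0.1% DMSO, and bars are means. Most acetylation-axis points spread from the level of DMSO upwards, TRNP1 reaching 23.2 TPM. High-dose OJI-1 lies below all DMSO points in LPAR3 and MINPP1, as does high-dose Merck60 in MINPP1. The lowest methylation-axis point of TRNP1, STARD5, ACSF2 and SURF1 is high-dose UNC0638.

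The 7 acetylation-axis compounds did not overlap with the 11 methylation-axis compounds in 4 of the 8 genes, TRNP1, MINPP1, SURF1 and TP53TG1. Among all tested genes 0.0856% were separated in this way with the acetylation axis higher; the choice of the genes used this contrast, so nothing is read from the count. OJI-1 lay lowest on the acetylation axis for 6 genes and Merck60 for the other 2, ACSF2 and TP53TG1. Within flow cell C5JW5ACXX, with 5 acetylation-axis and 7 methylation-axis compounds, the same 4 genes were separated (0.324% of all genes). The differences there were 1.49 for TRNP1, 1.0 for STARD5, 0.82 for LPAR3, 0.64 for LINC00663, 0.53 for ACSF2, 0.45 for TP53TG1, 0.44 for MINPP1 and 0.39 for SURF1, all smaller than over the 18 compounds.

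The separation has a different form in different genes. For LPAR3, STARD5 and ACSF2 the methylation-axis mean lay close to DMSO (-0.06 ± 0.18, 0.07 ± 0.32 and 0.02 ± 0.21, SD, n = 11), and the acetylation-axis mean was 0.97 ± 0.60, 1.31 ± 0.76 and 0.70 ± 0.38 (SD, n = 7). For TRNP1, MINPP1 and TP53TG1 the methylation-axis mean was below DMSO, at -0.29 ± 0.31, -0.22 ± 0.11 and -0.26 ± 0.22, against 1.27 ± 0.86, 0.28 ± 0.27 and 0.38 ± 0.25 on the acetylation axis. SURF1 (-0.05 ± 0.09 against 0.44 ± 0.27) and LINC00663 (-0.10 ± 0.20 against 0.62 ± 0.35) lay between these forms. Of the methylation-axis compounds, only Cpd50 and GSKJ4 shared a flow cell (C4JM1ACXX) with DMSO samples. They lay at 0.05 and 0.04 for TRNP1, -0.42 and -0.36 for MINPP1, and -0.58 and -0.45 for TP53TG1. Within C5JW5ACXX the methylation-axis means were -0.38, -0.21 and -0.14. For the compounds not on C4JM1ACXX, a level below DMSO cannot be told apart from flow cell. Without UNC0638 the axis differences ran from 0.47 for SURF1 to 1.51 for TRNP1. All 22 methylation-axis samples had less MINPP1 than the highest DMSO sample, as did all 4 PFI-3 and trametinib samples.

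**Figure D2:**
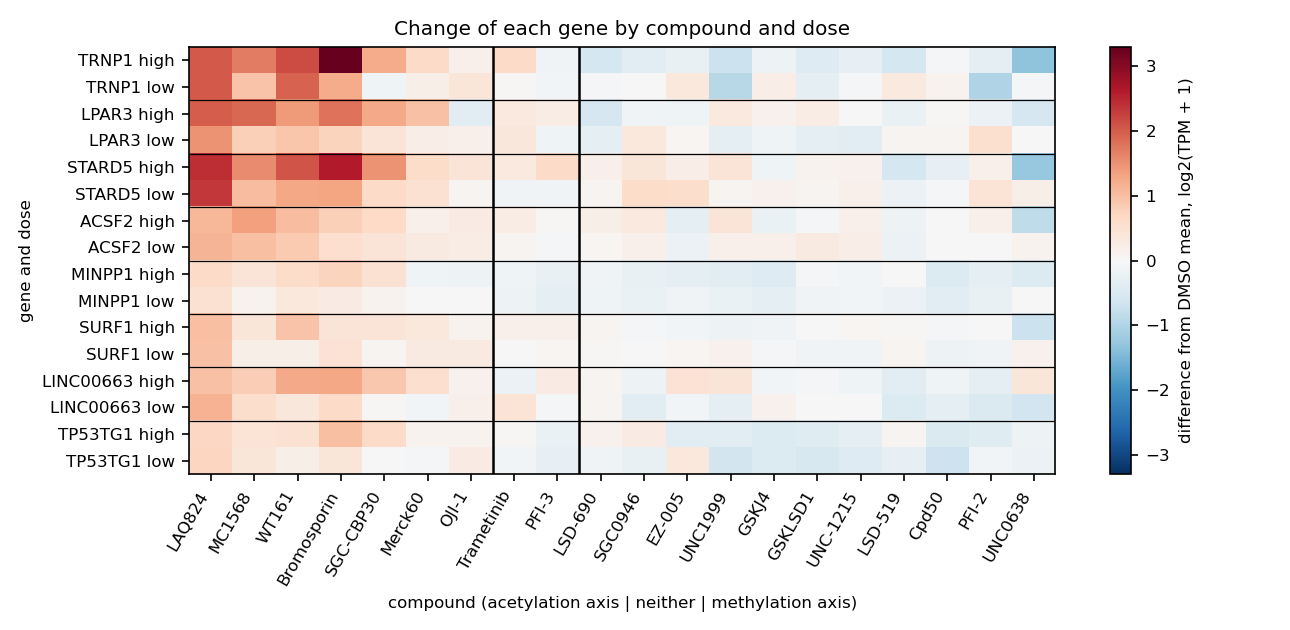
Difference of each gene from the mean of the 4 DMSO samples, in log2(TPM + 1), for 20 compounds (columns, grouped by axis and ordered within each by the median over the genes) at the high and low dose (rows). LAQ824, MC1568, WT161, Bromosporin and SGC-CBP30 carry the largest positive values, up to 3.28 for TRNP1 at the high dose of Bromosporin. Merck60 and OJI-1 are positive for most genes too, with lower medians over the 8 genes (0.28 and 0.20).

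The compounds of the acetylation axis were not alike. LAQ824 had the highest change for 5 genes (LPAR3, STARD5, MINPP1, SURF1 and LINC00663), Bromosporin for TRNP1 and TP53TG1, and MC1568 for ACSF2. LAQ824 was among the highest 3 of the 20 compounds for all 8 genes, Bromosporin for 7 and WT161 for 6. All 8 genes lay above all 4 DMSO samples at both doses of LAQ824, of MC1568 and of Bromosporin, where 42.9%, 54.6% and 24.9% of all tested genes did so. The count was 7 of 8 for WT161 (32.4% of all genes), with TP53TG1 the exception. It was 4 of 8 for SGC-CBP30 (28.3%) and for Merck60 (28.9%), and 1 of 8, ACSF2, for OJI-1 (10.2%). On the methylation axis it was at most 2 of 8, for SGC0946 (24.6%) and UNC-1215 (24.9%), in each case STARD5 and ACSF2. STARD5 alone did so in EZ-005 (24.7%), GSKLSD1 (43.1%) and PFI-2 (28.2%), and ACSF2 alone in LSD-690 (29%) and UNC1999 (20%). No gene of the 8 did so in Cpd50 (21.3%), GSKJ4 (17.6%), LSD-519 (26.3%) or UNC0638 (10.1%). Trametinib had 2 of 8, LPAR3 and ACSF2 (27.2%), and PFI-3 0 of 8 (18.3%). LPAR3 rests on few reads in these counts, with 7 and 5 reads in Trametinib at the high and low dose. It had 8 reads in low-dose SGC-CBP30, and 8 in the highest DMSO sample. The mean changes of all 8 genes were above 0 in Bromosporin, SGC-CBP30, LAQ824, MC1568 and WT161.

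TRNP1 was a low gene in control cells. Its 4 DMSO samples had 1.09, 1.77, 1.80 and 1.38 TPM (1.51 ± 0.11, SD, n = 2), from 13 to 28 reads. The 22 methylation-axis samples ran from 0 through a median of 1.09 to 2.16 TPM, and the 14 acetylation-axis samples from 1.26 through 4.82 to 23.2 TPM. In LAQ824 it was 9.06 TPM at the high and 9.11 TPM at the low dose, and in WT161 10.0 and 8.62 TPM. Bromosporin gave 23.2 TPM at the high and 4.86 TPM at the low dose, and SGC-CBP30 4.79 and 1.26 TPM. These values put high-dose Bromosporin well apart from every other screen sample, and low-dose SGC-CBP30 inside the DMSO range. Merck60 (2.88 and 1.83 TPM) was just above DMSO at both doses, and OJI-1 (1.78 and 2.26 TPM) only at the low dose. No TRNP1 read was present in high-dose UNC0638, which allows up to 0.632 TPM (3 reads, counting error only).

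LPAR3, the LPA receptor, had the lowest level of the 8, with 0.759, 0.286, 0.354 and 0.496 TPM in DMSO (0.474 ± 0.069, SD, n = 2) from 4 to 8 reads. Methylation-axis samples had at most 16 reads, and the values ran from 0 through 0.405 to 1.13 TPM. On the acetylation axis the 14 samples ran from 0.126 through 1.81 to 4.83 TPM. LAQ824 reached 4.83 and 3.06 TPM, MC1568 4.48 and 1.51 TPM, Bromosporin 4.05 and 1.45 TPM, and WT161 2.91 and 1.75 TPM at the high and low dose. The high dose was the higher in each of these compounds. OJI-1 went the other way, with 1 read (0.126 TPM) at the high and 3 reads (0.639 TPM) at the low dose, and was not separable from DMSO at this depth. LPAR3 was at 0 reads in high-dose LSD-690 and high-dose UNC0638, which allows up to 0.769 and 0.715 TPM and so does not set them below the DMSO samples.

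STARD5, the sterol carrier, had 6.58, 7.29, 7.87 and 7.60 TPM in DMSO (7.33 ± 0.56, SD, n = 2). It was 44.4 and 41.1 TPM in LAQ824, 50.2 and 19.7 TPM in Bromosporin, 34.2 and 19.3 TPM in WT161, 23.5 and 15.9 TPM in MC1568, and 22.1 and 11.8 TPM in SGC-CBP30 (high and low dose). In LAQ824 the doses were alike, whereas in the other 4 compounds the high dose was well above the low dose. The methylation-axis samples had 2.49 TPM at the lowest, a median of 8.17 TPM and 11.6 TPM at the highest, and 14 of 22 were above the highest DMSO sample. The lowest was high-dose UNC0638, with 8 reads. In the files STARD5 shares 98 bases at its end with IL16 on the other strand, and with no strand setting given in the sources used here, reads in those bases cannot be told apart.

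ACSF2, the acyl-CoA synthetase, varied least among controls, with 19.3, 20.1, 19.5 and 19.6 TPM (19.6 ± 0.10, SD, n = 2). All 14 acetylation-axis samples were above the highest DMSO sample, from 22.2 through 32.9 to 51.9 TPM, as were 12 of the 22 methylation-axis samples (10.6 through 20.9 to 26.7 TPM). MC1568 had 51.9 and 39.7 TPM, LAQ824 43.3 and 44.03 TPM, and WT161 40.6 and 36.2 TPM. Merck60 (22.2 and 24.4 TPM) and OJI-1 (24.0 and 23.4 TPM) lay within the range of the methylation axis, below UNC1999 at its high dose (26.7 TPM). The whole of CHAD, on the other strand, lies inside ACSF2, and in DMSO CHAD had a mean of 1.55 TPM.

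MINPP1, the inositol phosphate phosphatase, had 34.4, 37.8, 36.9 and 36.2 TPM in DMSO (36.3 ± 0.30, SD, n = 2). The highest samples were Bromosporin at the high dose (60.7 TPM), LAQ824 (57.2 and 51.7 TPM) and WT161 (55.8 and 46.8 TPM). On the methylation axis the range was 26.1 through 31.2 to 35.7 TPM, and Cpd50 (26.1 and 27.8 TPM) and GSKJ4 (26.7 and 29.5 TPM), the inhibitors of Jumonji demethylases, were the lowest compounds. Merck60 (32.8 and 36.6 TPM) and OJI-1 (32.2 and 36.5 TPM) did not exceed the DMSO samples. Their separation from the methylation axis was narrow, OJI-1 at -0.0804 against -0.0826 for GSKLSD1.

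SURF1, the cytochrome c oxidase assembly factor, was the most abundant of the 8, at 78.3, 82.3, 76.6 and 90.1 TPM in DMSO (81.9 ± 2.17, SD, n = 2). LAQ824 had 164 and 162 TPM, WT161 157 and 94.0 TPM, and Bromosporin 110 and 114 TPM. WT161 thus matched LAQ824 at its high dose alone. Merck60 had 104 and 100.3 TPM, above all 4 DMSO samples, and MC1568 109 and 94.0 TPM. The methylation-axis samples ran from 49.97 through 80.1 to 90.7 TPM, both ends being UNC0638, at its high and low dose.

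LINC00663, the chromosome 19 lncRNA, had 2.27, 2.08, 2.82 and 2.42 TPM in DMSO (2.40 ± 0.32, SD, n = 2). LAQ824 had 5.68 and 6.46 TPM and Bromosporin 7.15 and 4.203 TPM. WT161 (7.01 and 3.39 TPM) and SGC-CBP30 (5.28 and 2.5 TPM) were high at the high dose, and SGC-CBP30 lay within the DMSO range at the low dose. The methylation-axis range was 1.18 through 2.12 to 3.68 TPM. Unlike TRNP1, STARD5, ACSF2 and SURF1, LINC00663 was not low in high-dose UNC0638 (3.46 TPM, 20 reads).

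TP53TG1, the p53-linked lncRNA, had 17.0, 15.8, 19.97 and 15.3 TPM in DMSO (17.0 ± 0.86, SD, n = 2). Bromosporin had 35.0 and 22.5 TPM, LAQ824 27.6 and 28.2 TPM, SGC-CBP30 26.9 and 16.7 TPM, and MC1568 23.7 and 22.7 TPM. On the methylation axis the samples ran from 10.2 through 13.2 to 21.7 TPM, with Cpd50 (11.9 and 10.2 TPM) the lowest compound. Merck60, at 18.3 and 16.2 TPM, was inside the DMSO range and only 0.01 log2 above the highest methylation-axis compound, SGC0946 (0.024 against 0.013).

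Over the 20 compounds the changes of the 8 genes were correlated in all 28 pairs, with Pearson's r from 0.73 (ACSF2 and TP53TG1) to 0.92 (LPAR3 and STARD5) and a median of 0.87. Within the 7 acetylation-axis compounds the median r was 0.83, from 0.61 for ACSF2 and SURF1 to 0.99 for STARD5 and LINC00663. Within the 11 methylation-axis compounds it was 0.06, from -0.49 to 0.64. The points of a compound share libraries and the DMSO samples, and the genes were chosen for their contrast between the axes, which alone makes them covary over all 20 compounds.

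The genes whose change over the 20 compounds was most like that of each gene were found among all tested genes. ZNF10 (r = 0.97) and TESK2 (r = 0.96) were nearest to STARD5, and ANKDD1A (r = 0.95) and PLEKHH2 (r = 0.93) to LPAR3. NRIP3 and GALNT10 (both r = 0.94) were nearest to MINPP1, TMEM179B (r = 0.94) and GHET1 (r = 0.93) to SURF1, and LIPE-AS1 and FAM43A (both r = 0.93) to TRNP1. For ACSF2 they were SLC25A27 (r = 0.92) and PSD2 (r = 0.91), for LINC00663 TESK2 (r = 0.92) and CPM (r = 0.91), and for TP53TG1 DHRS7B and ELOVL4 (both r = 0.88). TESK2 was thus near to 2 of the 8 genes. LIPE-AS1 was nearly silent in DMSO (0.156 TPM).

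The genes next to the 8 were compared to see whether the difference extended to the neighbourhood, within 50 kb. In LAQ824, limma called 60.5% of all tested genes against DMSO, so a call there is no distinction. CROT, an acyltransferase gene of the peroxisome that faces TP53TG1 across 142 bases, was higher on the acetylation axis by 0.59 (SE 0.16, limma adjusted p = 0.0568 in the axis comparison). CROT was higher by 1.11 in LAQ824 (limma adjusted p = 9.13e-06) but by only 0.14 in Bromosporin, where TP53TG1 was highest. SURF2, which faces SURF1 across 59 bases, differed by 0.25 (SE 0.14, adjusted p = 0.244) between the axes. Its change was 0.75 in LAQ824 and -0.44 in Bromosporin, opposite in sign to that of SURF1 in Bromosporin (0.45). RPL7A, a ribosomal protein gene 379 bases beyond the other end of SURF1, differed by 0.10 (SE 0.08, adjusted p = 0.428).

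TMC3-AS1, which starts 149 bases from STARD5 and runs the other way, differed by 0.31 (SE 0.21, adjusted p = 0.315) between the axes, with 1.27 in LAQ824 and -0.60 in Bromosporin. IL16, at the other end of STARD5, differed by 0.42 (SE 0.14, adjusted p = 0.0685). MCOLN2 next to LPAR3 differed by 0.34 (SE 0.18, adjusted p = 0.201). LRRC59 and RSAD1 on either side of ACSF2 differed by 0.03 (SE 0.10) and -0.09 (SE 0.17), and CHAD inside it by 0.47 (SE 0.26), with adjusted p of 0.872, 0.747 and 0.230. The zinc finger genes ZNF14 and ZNF506 beside LINC00663 differed by 0.32 (SE 0.13) and 0.03 (SE 0.13), with adjusted p of 0.107 and 0.907. FAM46B near TRNP1 was at 0 TPM in DMSO and differed by 0.20 (SE 0.09, adjusted p = 0.138), KDF1 was not tested, and MIR4678 near MINPP1 differed by 0.05 (SE 0.25, adjusted p = 0.898). No neighbour passed the adjusted threshold between the axes, nor did any other gene.

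Trametinib and PFI-3, which took no part in the choice of the genes, were tested against DMSO with limma, each with both doses as its samples. At an adjusted p below 0.05, 0 of the 8 genes were called for either, against 1005 of 16359 genes (6.14%) for Trametinib and 4 (0.0245%) for PFI-3. Of the 8, 0 and 1 had an unadjusted p below 0.05. The fit took the doses of every compound as its replicates, so its spread includes the dose steps of the acetylation axis. Genes with large steps, such as TRNP1 and STARD5, had wide SEs, and the lack of a call does not show them unchanged. Limma with voom weights on the recovered reads, added after seeing the data, also called 0 of the 8 for either compound. With DMSO averaged to 1 sample per concentration, limma called 441 genes (2.7%) for Trametinib and 7 (0.0428%) for PFI-3, and again 0 of the 8. The call counts over all genes thus depend on taking all 4 DMSO samples as separate. In Trametinib, a MEK1/2 inhibitor, TRNP1 was 2.83 and 1.57 TPM at the high and low dose (0.33, SE 0.41, limma adjusted p = 0.778) and LPAR3 0.832 and 0.887 TPM (0.35, SE 0.32, adjusted p = 0.681). The other changes in Trametinib lay between -0.15 (MINPP1, SE 0.13, adjusted p = 0.633) and 0.16 (ACSF2, SE 0.17, adjusted p = 0.722). In PFI-3 the changes ran from -0.27 for MINPP1 (30.4 and 29.4 TPM; SE 0.13, unadjusted p = 0.0453, limma adjusted p = 1) to 0.25 for STARD5 (11.8 and 6.62 TPM; SE 0.32, adjusted p = 1). The result for MINPP1 depended on the fit. In a fit of only the 2 samples of the compound and DMSO it was called for both compounds, with an adjusted p of 0.0472 for Trametinib and 0.0345 for PFI-3, in fits that called 5091 (31.1%) and 1026 genes (6.27%). Both compounds were sequenced on flow cell C5JW5ACXX, which had no DMSO sample, so flow cell and compound cannot be told apart against DMSO. Against the methylation-axis compounds of that flow cell, limma called 0 of the 8 for either compound, and 1190 genes (7.27%) for Trametinib and 0 (883 at an unadjusted p below 0.05) for PFI-3. The changes in Trametinib then ran from 0.02 for STARD5 (SE 0.28, adjusted p = 1) to 0.72 for TRNP1 (SE 0.36, adjusted p = 0.294), with MINPP1 at 0.06 (SE 0.11, adjusted p = 0.866). Those in PFI-3 ran from -0.11 for TP53TG1 to 0.28 for TRNP1, with MINPP1 at -0.06.

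The dose step is the high minus the low dose within a compound. It comes from the same samples as the ranking, and a high value at 1 dose enters both the step and the mean of the doses, so the steps of the 8 genes are given as a description, with no test. In all 7 acetylation-axis compounds STARD5 had its larger value at the high dose; LPAR3 did in 6 of 7 and the other 6 genes in 5 of 7 each. The mean step was 0.65 (SE 0.23) for TRNP1, 0.61 (SE 0.18) for LPAR3, 0.58 (SE 0.16) for STARD5 and 0.44 (SE 0.15) for LINC00663. It was 0.23 (SE 0.12) for TP53TG1, 0.18 (SE 0.08) for MINPP1, 0.16 (SE 0.11) for SURF1 and 0.13 (SE 0.11) for ACSF2. Over all 16359 genes, limma called 0 (0%) at an adjusted p below 0.05, and 3820 had an unadjusted p below 0.05.

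**Figure D3:**
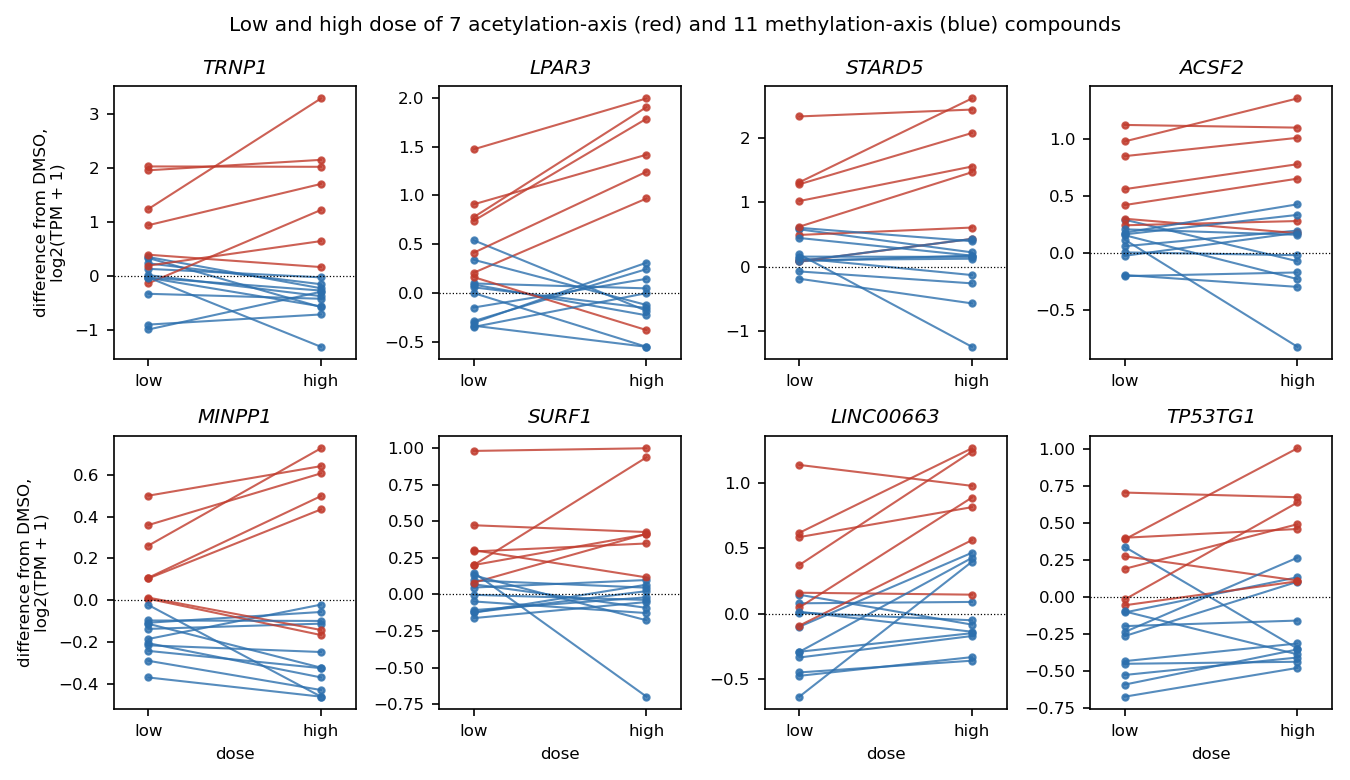
Difference from the mean of the 4 DMSO samples, in log2(TPM + 1), at the low and high dose; each line is a compound, red for the 7 of the acetylation axis and blue for the 11 of the methylation axis. STARD5 lines of the acetylation axis all slope upwards, by 0.11 (LAQ824) to 1.31 (Bromosporin), and the steep falling blue line in TRNP1, STARD5, ACSF2 and SURF1 is UNC0638.

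LAQ824 hardly differed between its doses, with steps of -0.007 for TRNP1, 0.11 for STARD5, -0.02 for ACSF2 and 0.02 for SURF1, and 0.52 for LPAR3. Bromosporin had the largest steps in TRNP1 (2.05), STARD5 (1.31) and MINPP1 (0.47), WT161 in SURF1 (0.74) and LINC00663 (0.87), SGC-CBP30 in TP53TG1 (0.66), and MC1568 in LPAR3 (1.13) and ACSF2 (0.38). The lowest step of LPAR3, -0.54, was that of OJI-1 and rests on 1 and 3 reads.

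On the methylation axis the mean steps ran from -0.33 (SE 0.18) for TRNP1 to 0.22 (SE 0.12) for LINC00663. UNC0638 had the lowest step for TRNP1 (-1.28), STARD5 (-1.44), ACSF2 (-0.94), MINPP1 (-0.44) and SURF1 (-0.85) and a step of 1.03 for LINC00663. Without UNC0638 the methylation-axis mean was -0.24 (SE 0.18) for TRNP1, 0.14 (SE 0.11) for LINC00663, -0.12 for STARD5, -0.05 for MINPP1, -0.01 for ACSF2 and -0.005 for SURF1, so that both ends of the range lay nearer 0. The difference between the axes in dose step was largest for TRNP1 (0.99, SE 0.29) and STARD5 (0.82, SE 0.21), and without UNC0638 it was 0.89 (SE 0.28) and 0.70 (SE 0.16). Over all genes, limma called 0 (0%) for the methylation-axis step and 0 (0%) for the difference, with 1615 and 2582 genes at an unadjusted p below 0.05.

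Between 0.2% and 0.1% DMSO, without any compound, the 8 genes differed by -0.08 (LPAR3) to 0.19 (LINC00663). Limma called 0 of the 8 and 0 of all genes (0%), with 1548 genes at an unadjusted p below 0.05. Over the 10378 genes with at least 100 reads in every DMSO library, the concentration contrast had 2.47 times the variance of counting noise. The flow cell contrast had 2.21 times that variance. This fit left flow cell in its spread, so the lack of a call does not show the concentrations alike.

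N1302 and entinostat, in samples that the choice of the genes did not use, give a separate view, with 1 sample a group and hence no test. All 8 genes were higher with N1302 than in its DMSO sample, when 41.3% of all tested genes were higher. At a difference of at least 1, 5 of 8 were higher against 11.6% of all genes. LPAR3, counted here and with entinostat at 6 and 24 h, passed the filter on low values only through such inhibitor samples. Its place in these counts was thus favoured by the filter, and nothing is read from it. STARD5 was 21.8 TPM against 2.04 (202 and 27 reads, a difference of 2.91), TRNP1 34.7 against 5.16 TPM (476 and 101 reads, 2.54), and LPAR3 3.64 against 0.752 TPM (44 and 13 reads, 1.40). SURF1 was 149 against 59.8 TPM (1.31) and TP53TG1 19.9 against 9.12 TPM (1.04). The remaining genes were below 1: ACSF2 with 25.7 against 12.5 TPM (0.98), LINC00663 with 1.74 against 0.671 TPM (0.71, 29 and 16 reads) and MINPP1 with 49.8 against 41.2 TPM (0.27). The median difference over the 8 was 1.17 against -0.11 over all genes. With median-ratio scaling, which moved the latter to 0.03, the MINPP1 difference was 0.59 and 6 of 8 reached 1 (17% of all genes); with a pseudocount of 0.1, 7 of 8 did (17.4% of all genes), and the differences of LPAR3 and LINC00663 were 2.13 and 1.25. Against both 6 h DMSO samples, 4 of 8 reached 1 (9.86% of all genes), with MINPP1 at 0.59 and TP53TG1 at 0.77.

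**Figure D4:**
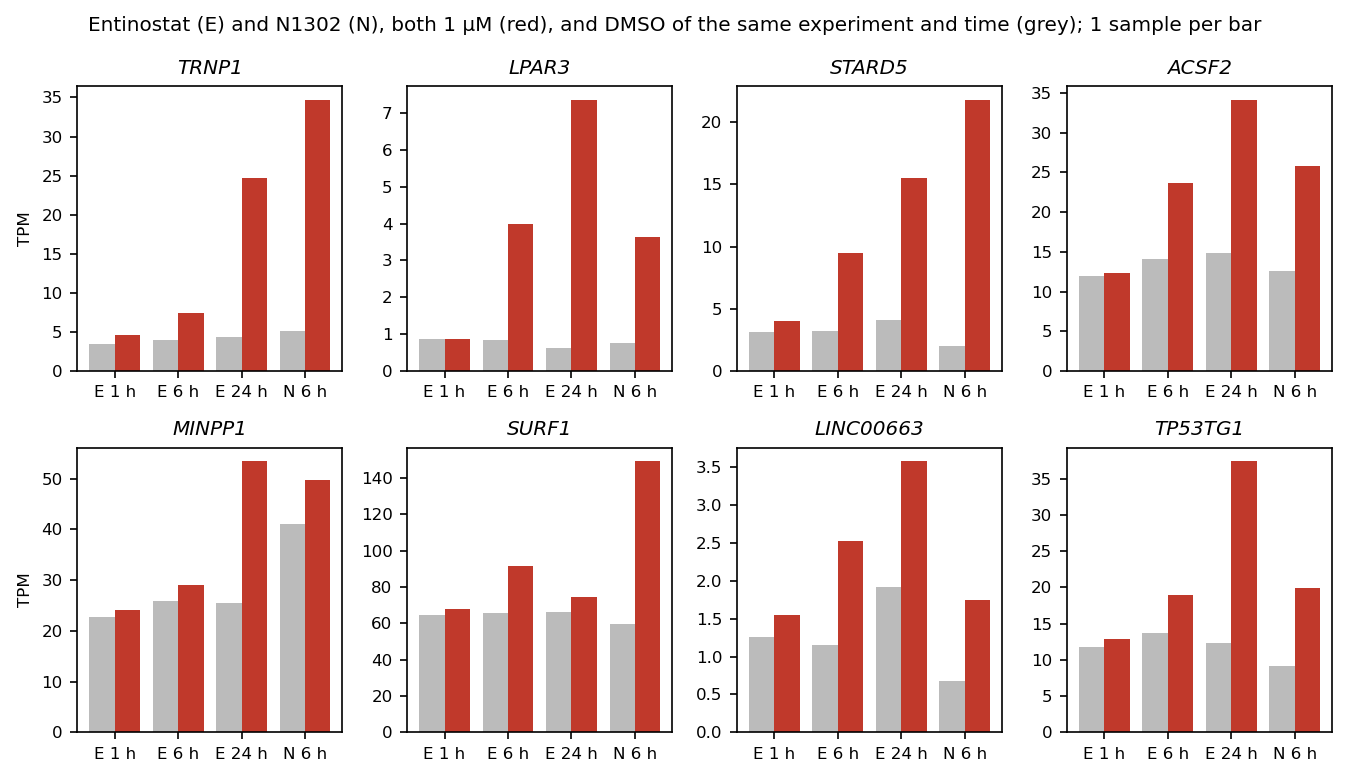
Level in TPM of each gene with entinostat at 1, 6 and 24 h and N1302 at 6 h (red, both at 1 µM) and in DMSO of the same experiment and time (grey); each bar is 1 sample and the axes start at 0. LPAR3 with entinostat climbs from 0.879 to 7.37 TPM over the time course while DMSO stays between 0.629 and 0.868 TPM. SURF1 is closer to its control at 24 h than at 6 h, and closest at 1 h.

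Entinostat is an inhibitor of class I HDACs, labelled HDAC1/2/3. After 1 h the 8 genes differed from DMSO by 0.008 (LPAR3) to 0.35 (TRNP1), and none reached 1 (0.66% of all genes did so upwards). After 6 h all 8 were higher, when 52% of all genes were, and 2 of 8 reached 1, against 5.13% of all genes: LPAR3 with 3.98 against 0.846 TPM (1.43, 94 and 16 reads) and STARD5 with 9.52 against 3.25 TPM (1.31). TRNP1 was 7.40 against 4.02 TPM (0.74), ACSF2 23.7 against 14.0 TPM (0.71) and LINC00663 2.52 against 1.15 TPM (0.71). SURF1 (0.48), TP53TG1 (0.44) and MINPP1 (0.16) differed least.

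After 24 h, 6 of 8 reached 1, against 16.4% of all genes. LPAR3 was 7.37 against 0.629 TPM (2.36), TRNP1 24.7 against 4.36 TPM (2.26), STARD5 15.5 against 4.11 TPM (1.69), TP53TG1 37.4 against 12.3 TPM (1.53), ACSF2 34.2 against 14.9 TPM (1.15) and MINPP1 53.5 against 25.5 TPM (1.04). LINC00663 was 3.58 against 1.92 TPM (0.65). SURF1 was 74.6 against 66.4 TPM (0.16), below its 91.5 TPM at 6 h. SURF1 and LINC00663 had smaller differences at 24 h than at 6 h, and the other 6 genes larger ones. The difference went from 0.16 at 6 h to 1.04 at 24 h for MINPP1, and from 0.44 to 1.53 for TP53TG1. The median over the 8 was 0.10 at 1 h, 0.71 at 6 h and 1.34 at 24 h, against 0, 0.02 and 0.10 over all genes.

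At 6 h and 1 µM, N1302 and entinostat differed most in TRNP1 (2.54 and 0.74) and STARD5 (2.91 and 1.31), and had near values in LPAR3 (1.40 and 1.43) and LINC00663 (0.71 for each); these are single samples with different DMSO controls, and the difference was not tested. The controls themselves differed: MINPP1 was 41.2 TPM in the DMSO of N1302 and 26.0 TPM in the 6 h DMSO of the time course. With the mean of both as reference the MINPP1 difference in entinostat at 6 h changed sign, to -0.17. TRNP1 was 3.38 to 5.16 TPM in the 4 RH4-titled DMSO samples and 1.09 to 1.80 TPM in those of the screen, and STARD5 2.04 to 4.11 TPM against 6.58 to 7.87 TPM.

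Other genes of the same pathways were called in both directions. Lists of related genes were counted in LAQ824, where 32.4% of all tested genes were called higher and 28.1% lower, and in Bromosporin, where 16.5% were called higher and 29.5% lower, and their median in the axis comparison was set beside that of all genes, 0.01. Among 8 tested genes of LPA signalling, 2 were called higher and 4 lower in LAQ824, 1 and 3 in Bromosporin, and the median axis difference was -0.10. LPAR1, another LPA receptor, was lower by 1.81 in LAQ824 (limma adjusted p = 4.79e-06) and its axis difference was -0.52 (SE 0.25, adjusted p = 0.159), opposite to LPAR3. GNA13, a G protein subunit downstream of LPA receptors, differed by -0.30 (SE 0.10, adjusted p = 0.0727), and PLPP1, a phosphatase that degrades LPA, by 0.24 (SE 0.13, adjusted p = 0.206).

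Of 11 tested START-domain genes, 7 were called higher and 1 lower in LAQ824, and 6 and 4 in Bromosporin, with a median axis difference of 0.10. PCTP, a phosphatidylcholine carrier, differed by 0.50 (SE 0.13) and DLC1 by 0.37 (SE 0.10), each with a limma adjusted p of 0.0568, while STARD13 differed by -0.60 (SE 0.18, adjusted p = 0.0588). Of 15 acyl-CoA synthetase genes, 9 were called higher and 3 lower in LAQ824, and 4 and 2 in Bromosporin, with a median axis difference of 0.22. SLC27A4 (0.78, SE 0.20, adjusted p = 0.0568), AACS (0.48, SE 0.14, adjusted p = 0.0609) and ACSL1 (0.51, SE 0.16, adjusted p = 0.0634), which activate fatty acids or acetoacetate, had the smallest p. The SLC27A4 difference came mostly from a methylation-axis mean of -0.56 below DMSO.

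In inositol phosphate metabolism, 7 of 21 genes were called higher and 7 lower in LAQ824, and 2 and 9 in Bromosporin (median axis difference 0.04). The inositol trisphosphate kinase gene ITPKB had the largest difference among the genes named here from the lists, -1.28 (SE 0.33, adjusted p = 0.0568). It was opposite to MINPP1, and was lower by 2.96 in LAQ824 (adjusted p = 7.95e-08). INPP4B (-0.64, SE 0.19, adjusted p = 0.0581) and IP6K3 (-0.85, SE 0.26, adjusted p = 0.0631) were also lower on the acetylation axis. In cytochrome c oxidase assembly, 5 of 24 genes were called higher and 7 lower in LAQ824, and 1 higher and 14 lower in Bromosporin (median axis difference -0.05). COX10, needed for the haem of the oxidase, differed by -0.72 (SE 0.16, adjusted p = 0.0568) and COA7 by -0.60 (SE 0.19, adjusted p = 0.0634), both opposite to SURF1, and CMC2 by 0.33 (SE 0.13, adjusted p = 0.107).

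Of 20 p53 target genes, 9 were called higher and 5 lower in LAQ824, and 9 higher and 3 lower in Bromosporin. The median axis difference was 0.20. SESN2 (0.70, SE 0.20, adjusted p = 0.0581) and ZMAT3 (0.72, SE 0.22, adjusted p = 0.0622) were higher on the acetylation axis, as TP53TG1 was, and AEN was lower (-0.42, SE 0.13, adjusted p = 0.0627). Of all these lists, 0 genes passed an adjusted p of 0.05 between the axes, as for all genes.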

How the data were processed

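The 52 tables hold TPM as deposited: per the labels and the study's methods, the authors selected poly-A RNA, sequenced it on Illumina instruments, used STAR to align reads to hg19 and RSEM to quantify genes; the submitters' notes also name edgeR, with no role stated. The methods name FPKM and TPM; the files hold TPM, and each column summed to 1000000. Samples were grouped from the labels only.

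Dividing TPM by a step found for each gene and sample gave whole reads in 23602 of the 23645 genes above 0 (99.82%, tolerance 0.01 of a read); these read numbers give the depth. In 3 samples (high doses of Bromosporin, Merck60 and PFI-2) these numbers are uncertain by a factor of 2. Limits and read numbers cover counting error only. Nothing in the labels says that samples came from separate cultures, so p-values measure only the spread between these samples.

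Values were tested as log2(TPM + 1) with limma 3.58.1 in R 4.3.3 (lmFit, eBayes with trend), on the 16359 genes whose TPM reached 1 in 2 samples, with Benjamini-Hochberg adjustment over all of them; calls needed an adjusted p below 0.05, with no fold minimum. Trametinib and PFI-3 came from 1 fit of the 44 screen samples, and dose steps from 18 high minus low differences, fitted over all genes but given for the 8 genes as a description. With 1 sample a group, called means a log2 difference of at least 1. The 8 genes and the lists were chosen with earlier results of these data known. Named besides them are the nearest listed gene on each side within 50 kb and any that overlaps, the 2 genes with the highest r for each, and at most 3 per list with the smallest p in the axis fit. Other steps used Python 3.11.15 (scipy 1.17.1, pandas 2.3.3, numpy 2.4.6). The limma fits and the recovery of reads were tested on simulated data. Alternatives were another pseudocount, scaling, filters, references and leaving out samples or compounds; limma with voom weights on recovered reads was added after seeing the data. In the DMSO samples, deviations of the same replicate number correlated at 0.07 and of different numbers at -0.07, a mirror image that this layout forces.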

Additional observations from a re-analysis of the deposited data

Results flagged for a closer look

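One result stood apart from its group by the test for a distant value in groups of 4 to 10, applied to the DMSO samples, the acetylation-axis changes and the acetylation-axis dose steps of each gene (24 groups, of which chance flags about 1 in 20). The LPAR3 dose step of OJI-1, -0.54, lay below those of the other 6 acetylation-axis compounds, with a gap of 0.63 of the whole range. It rests on 1 read at the high and 3 reads at the low dose.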

How the results depend on the processing

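The axis difference of each of the 8 genes stayed above 0 under all 24 alternatives, from 0.37 (SURF1, low dose alone) to 2.23 (TRNP1, pseudocount of 0.1). The count of genes without overlap between the axes, 4, was 1 with the low dose alone, 4 to 7 with a compound left out (7 without OJI-1), and 4 with the HDAC compounds alone. For the acetylation-axis dose step, whose samples also chose the genes, the fit called 0 of 8 and 0 of all genes; it called 1 of the 5 that passed a mean TPM of at least 5 (3.24% of all genes there), and 0 to 2 with a compound left out. It was 2 without LAQ824 (7.03% of all genes), OJI-1 (5.84%) or UNC0638 (6.86%) and 1 without Merck60 (4.62%), so the calls rose over all genes too. As the same samples chose the genes, nothing is read from these counts of the 8. For Trametinib and for PFI-3 it was 1 of 8 (MINPP1) with the 2 samples of the compound and DMSO alone, and 0 under the other alternatives, among them DMSO averaged to 1 sample per concentration. The fit with a replicate block called 0 of 8 between DMSO concentrations, as without it, and 1768 genes at an unadjusted p below 0.05 against 1548. No cause of these shifts was tested.

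Changes that were not called also changed sign. In Trametinib against methylation-axis compounds of the same flow cell, MINPP1 was 0.060 and TP53TG1 0.12; without the high dose STARD5 was -0.11 and SURF1 -0.021; without the low dose LINC00663 was -0.18 and TP53TG1 0.051; with a DMSO replicate left out TP53TG1 ran from -0.062 to 0.059. In PFI-3 against those compounds TRNP1 was 0.28; without the high dose LPAR3 was -0.14, STARD5 -0.13 and LINC00663 -0.051; without the low dose ACSF2 was 0.028; with a DMSO replicate left out LPAR3 ran from -0.0097 to 0.14. Between DMSO concentrations, leaving out a replicate gave -0.10 to 0.30 for TRNP1, -0.31 to 0.15 for LPAR3, -0.047 to 0.082 for MINPP1, -0.038 to 0.018 for ACSF2, -0.094 to 0.27 for TP53TG1 and -0.067 to 0.17 for SURF1. With both 6 h DMSO samples as reference, MINPP1 in entinostat at 6 h was -0.17. Median-ratio scaling moved the median of all genes in N1302 from -0.11 to 0.03 and in entinostat at 6 h from 0.02 to 0.12; the 8 genes kept their signs under it in N1302 and at 6 h. LPAR3 and TRNP1 are limited most by depth.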
